A study of Mus musculus with 6 samples.

Results

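Elongating spermatids at the transition protein peak were the cells in which transcripts of the transition protein genes Tnp1 and Tnp2 were most abundant. They were chosen by measured values: a cell barcode was taken when it held at least 2500 unique molecular identifiers (UMIs, each counting 1 captured transcript), under 20% mitochondrial UMIs and at least 4% of its UMIs from Tnp1 and Tnp2 together. This rule took 10250 of 68400 barcodes, and 34125 barcodes met its UMI and mitochondrial limits. The levels of Tnp1 and Tnp2 in these cells follow from the rule and are given as a description, as is every comparison of the cells with other barcodes.

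The study dissociated both testes of each of 6 C57BL/6J males, an inbred strain, and made 1 droplet library (10x Genomics, 3′ v3 chemistry) from each mouse. From 3 weeks of age, 3 mice received nicotine at 200 µg/mL in their drinking water for 8 weeks. Plain drinking water was given to the 3 controls, and testes, which hold every stage of sperm formation side by side, were taken at 11 weeks of age in both groups. Mice are the replicates, 3 in each group, and a library held between 67853893 and 88329607 UMIs. The labels state 10000 cells loaded per sample, and the files hold 10823 to 12317 barcodes each.

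After meiosis a round spermatid rebuilds its nucleus. Histones are replaced first by transition proteins and then by protamines, small basic proteins that pack the DNA tightly, while the acrosome, the tail and the midpiece take shape. Transcription stops as the chromatin condenses, and messenger RNAs made earlier, those of the transition proteins and protamines among them, are stored and translated later.

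The transition protein and protamine genes lie at 2 places in the mouse genome (GRCm38). Tnp2, Prm3, Prm2 and Prm1 form a cluster on the minus strand of chromosome 16 between positions 10787936 and 10805839, a span of 17.9 kb. Tnp1 lies alone on chromosome 1 between positions 73015074 and 73015909, also on the minus strand. These extents are those of GENCODE vM21, which takes in the outermost transcripts, and its gene ends reach past the starts RefSeq gives, for Prm1 to position 10805839. The 250 bases before the RefSeq start of the 4 main genes are shown because these were the most abundant genes in the cells. The sequences are RefSeq's (GRCm38.p6), read 5′ to 3′ on the minus strand, and capitals mark a match to TGANGTCA or TGACNTCA, which are the reverse complement of each other and differ from the cyclic AMP response element TGACGTCA by at most 1 central base.
Tnp1, chr1:73015900-73016149: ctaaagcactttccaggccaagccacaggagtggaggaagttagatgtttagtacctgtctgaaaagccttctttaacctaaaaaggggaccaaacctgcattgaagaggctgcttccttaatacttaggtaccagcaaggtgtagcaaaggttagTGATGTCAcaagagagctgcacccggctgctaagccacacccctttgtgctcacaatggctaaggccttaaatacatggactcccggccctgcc
Tnp2, chr16:10788656-10788905: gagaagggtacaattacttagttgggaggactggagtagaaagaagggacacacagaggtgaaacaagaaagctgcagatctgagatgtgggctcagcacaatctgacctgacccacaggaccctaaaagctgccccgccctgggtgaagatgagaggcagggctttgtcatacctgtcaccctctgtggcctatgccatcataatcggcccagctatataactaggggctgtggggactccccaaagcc
Prm1, chr16:10796824-10797073: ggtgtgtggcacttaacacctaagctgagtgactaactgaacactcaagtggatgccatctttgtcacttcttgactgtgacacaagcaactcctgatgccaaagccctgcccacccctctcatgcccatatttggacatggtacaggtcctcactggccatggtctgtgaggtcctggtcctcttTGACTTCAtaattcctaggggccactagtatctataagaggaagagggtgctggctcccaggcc
Prm2, chr16:10792106-10792355: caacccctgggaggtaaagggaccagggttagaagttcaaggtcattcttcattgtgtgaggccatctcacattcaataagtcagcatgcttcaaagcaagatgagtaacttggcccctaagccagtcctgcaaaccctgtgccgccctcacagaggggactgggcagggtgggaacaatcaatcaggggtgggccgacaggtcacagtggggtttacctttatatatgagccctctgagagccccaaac

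In the 300 bases searched for each gene (250 before the start and 50 after it), the match in Tnp1 began 94 bases before the start and that in Prm1 began 64 bases before it. Tnp2 and Prm2 held neither form. One of the forms stood in 8.83% of all 32851 promoters in the table, and the full TGACGTCA in 1.79% of them and in none of the 4 genes. These matches describe the letters only.

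The number of these cells differed up to 1.93-fold between mice. Members numbered 2313, 1198 and 1632 in the control mice and 1538, 1436 and 2133 in the nicotine mice. Tnp1 and Tnp2 together took a median of 7.22% of a member's UMIs and at most 12.7%. The limit cut through few cells: 427 members lay between 4% and 4.5%, with a median of 2728 genes, and 547 barcodes lay just outside between 3.5% and 4%, with a median of 2958 genes. A further 756 barcodes reached 4% with under 2500 UMIs and were not members.

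**Figure D1:**
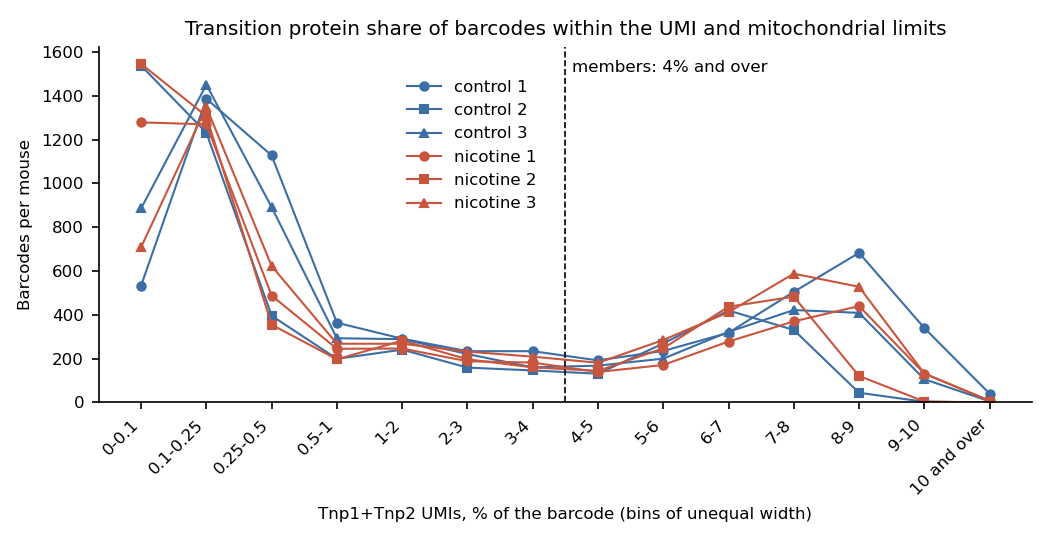
Number of barcodes per mouse (y axis) by the percent of their UMIs from Tnp1 and Tnp2 (x axis, bins of unequal width), for barcodes within the UMI and mitochondrial limits, with 1 line per mouse and the 4% limit dashed. Few barcodes lie around the limit, and the libraries of control 2 and nicotine 2 have 44 and 121 members at 8 to 9% where the other 4 mice have 409 to 683.

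The libraries of control 2 and nicotine 2 stood apart from the other 4. Of 3948 genes with at least 20 CPM (the gene's UMIs after scaling all UMIs of the members to a total of 1000000) in members, 2253 (57.1%) had both of these libraries outside the range of the other 4, and the first principal component held 70.0% of the variance. Each group holds 1 of the 2 libraries, and the labels give no batch or date. Barcodes were rarely shared: 15 barcode sequences occurred among the members of more than 1 library. Doublets were not removed, since the rule has no step for them, and leaving out the highest Scrublet scores would have removed 10.2% to 15.1% of members per mouse.

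The 4 transition protein and protamine genes led the transcriptome of the cells and together took 16.4% to 19.2% of their UMIs in a mouse. Prm1 was at 64902, 46366 and 66325 CPM in the control mice and 60282, 48053 and 64625 CPM in the nicotine mice. Prm2 was at 52662, 54679 and 50844 CPM in the control mice and 46488, 50473 and 47631 CPM in the nicotine mice. Control 2 and nicotine 2 were the lowest mice for Prm1 and the highest of their group for Prm2. Tnp2 varied least, from 38652 to 41713 CPM over the 6 mice. Tnp1 lay between 30116 and 32368 CPM in 4 mice and at 23137 and 24686 CPM in control 2 and nicotine 2.

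Of the 15 most abundant genes, the next after the 4 were Meig1, needed for the sperm tail, at 6612 ± 409 CPM and Eif1, a translation initiation factor, at 5647 ± 526 CPM (SD, n = 6 mice). They were followed by Fabp9, Dbil5, Smcp, Gsg1, Odf2, Ldhc, Tpt1, Hmgb4 and Gstm5, between 3869 and 5182 CPM. Smcp encodes a protein of the sperm mitochondrial capsule, Odf2 a protein of the outer dense fibres of the tail, and Ldhc the lactate dehydrogenase of germ cells. The 15 genes took 22.0% to 24.3% of UMIs.

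The label was checked against genes that the rule did not name, as a description, since the cells were chosen by their transcripts. Protamines, Cby3 and Tex37 were all far above their level in the other barcodes within the limits. Folds are of mean CPM over 6 mice with 1 CPM added. Cby3 was at 261 ± 24.5 CPM in members and 14.7 CPM in the others, a fold of 16.7, and Tex37, a gene of spermatids, was at 855 ± 105 and 88.5 CPM, a fold of 9.57. Of 1406 genes with at least 100 CPM in members, 92 were at least 4-fold above the other barcodes and 42 at least 4-fold below. This limit was set on members only, so the 2 counts cannot be weighed against each other. It left out genes low in members and high elsewhere, such as Spaca1 at 46.8 CPM in members and 584 CPM in the others. The 92 also include Tnp1 and Tnp2, which the rule used. The 10 highest were Cby3, Gm4665, Tnp1, Tnp2, 1700003O11Rik, Cstl1, Tex37, Tfam, Odf3b and Defb33. Tfam, which packs and transcribes mitochondrial DNA, was at 1345 ± 50.2 CPM in members and 145 CPM in the others. Markers of other testis cells were also measured in members. The largest of these sums was that of 8 late condensing spermatid markers, at 14647 to 17623 CPM. Summed levels were 1177 to 1328 CPM for 10 round spermatid markers and 363 to 392 CPM for 11 spermatocyte markers, of which Nme8 held 224 CPM. They were 12.5 to 55.6 CPM for 9 Leydig cell markers, 6.67 to 14.9 CPM for 10 stromal and myoid markers and 111 to 147 CPM for 10 macrophage markers, of which Apoe held 88.1 CPM and C1qb 29.99 CPM. Apoe and C1qb were lower in the other barcodes, at 61.4 and 14.0 CPM. Every other macrophage marker on the list was higher in the other barcodes than in members. C1qa was at 7.07 CPM there and 0.83 CPM in members, Lyz2 at 9.60 and 0.99 CPM, and Cd68 at 0.68 and 0.66 CPM. In members the 9 spermatogonium markers summed to 28.6 to 32.5 CPM and the 6 endothelial markers to 14.4 to 18.8 CPM. Uchl1, Sohlh1 and Vwf were at 12.4, 6.23 and 14.9 CPM in members and 6.47, 2.02 and 5.56 CPM in the other barcodes, where Nme8 was at 152 CPM. All other listed spermatocyte, spermatogonium and endothelial markers were lower in members than in the other barcodes. Transcripts of the mitochondrial genome were scarce in members, at 739 ± 250 summed CPM against 5323 ± 1126 in barcodes under 1% transition protein share. This was not particular to members. The earlier and later barcodes defined next held 591 ± 157 and 1410 ± 526 CPM.

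To place the cells in order, they were compared with barcodes just below the limit (1% to under 4% transition protein share), split by the protamine to transition protein ratio. This ratio is the log2 of Prm1 plus Prm2 UMIs over Tnp1 plus Tnp2 UMIs, with 1 added to each, and its pooled median over members was 0.598. The 2155 barcodes below that median are called earlier and the 1784 at or above it later. These are names only, and no order in time was measured. The 8 late condensing spermatid markers did not separate members from later barcodes. Their sums were 14647 to 17623 CPM in members, 13625 to 19241 CPM in later barcodes and 8199 to 9222 CPM in earlier ones. Of the 8, Cabyr was highest in earlier barcodes, at 382 CPM against 124 CPM in members and 194 CPM in later ones. Later barcodes carried more of the 10 round spermatid markers than members, at 1404 to 2510 summed CPM against 1177 to 1328 CPM. The part of a mixture of stages in their values was not tested.

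Protamine transcripts in the later barcodes were close to their level in members. Which barcodes count as later depends on the ratio, so this order follows in part from the split. Prm2 was at 15739 ± 1202 CPM in earlier barcodes, 50463 ± 3052 CPM in members and 50301 ± 7547 CPM in later ones (SD, n = 6 mice). Prm1 was at 15678 ± 1875, 58426 ± 8936 and 48514 ± 6254 CPM. Tnp2 was at 14020, 40140 and 14460 CPM and Tnp1 at 9396, 28760 and 9233 CPM, as the limits require.

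**Figure D2:**
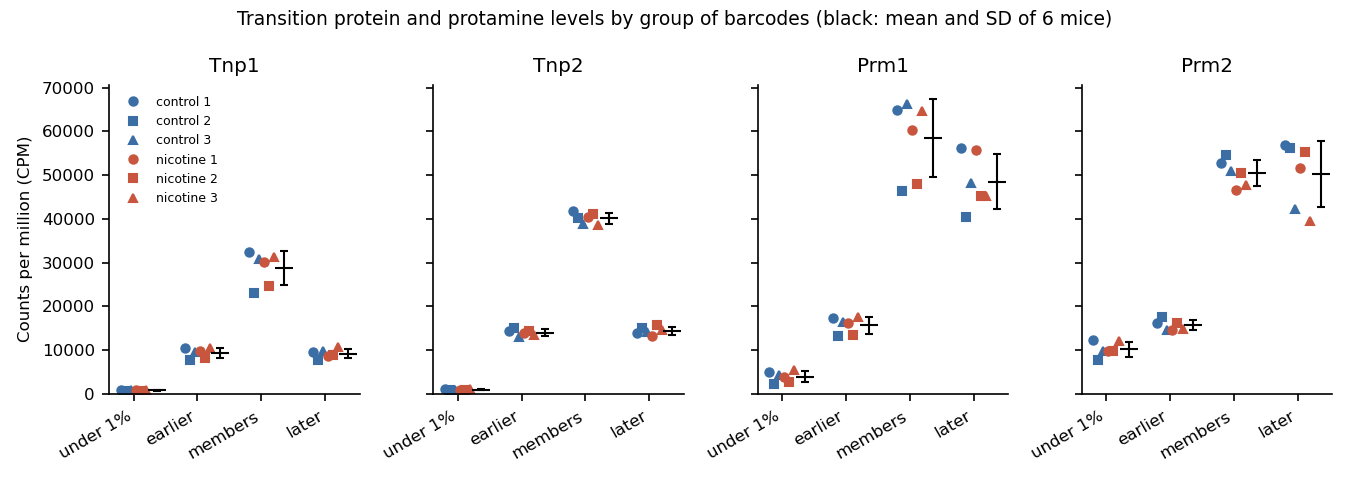
Level of Tnp1, Tnp2, Prm1 and Prm2 (y axis, CPM) in barcodes under 1% transition protein share, earlier barcodes, members and later barcodes, with 1 point per mouse and the mean and SD of 6 mice in black. Both transition proteins are highest in members by the rule, and the protamines are as high or nearly as high in later barcodes, with Prm1 lowest in control 2 and nicotine 2 among members.

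Genes that act in histone replacement were described next, from a list of 36. Hmgb4, a testis HMG-box protein, was highest in members, at 2335 ± 111 CPM in earlier barcodes, 3972 ± 274 CPM in members and 1396 ± 188 CPM in later ones. The spermatid linker histone gene H1fnt was at 1020, 1786 and 1404 CPM and the histone variant gene H2al2a at 857, 1781 and 1547 CPM. Hils1, another spermatid linker histone, was at 2264 CPM in earlier barcodes, 1993 CPM in members and 1015 CPM in later ones. The replacement histone gene H3f3b went the other way. It was at 3008 ± 294 CPM in earlier barcodes and 239 ± 22.7 CPM in members, with 1141 ± 239 CPM in later ones. Tssk6, a kinase needed for histone removal in mice, was at 530, 1386 and 1454 CPM.

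The 22 genes of the outer dense fibres and fibrous sheath summed to 21976 ± 1237 CPM in members and 15448 ± 343 CPM in barcodes under 1% transition protein share, and the 28 genes of the residual body, autophagy and apoptosis to 5675 ± 236 and 4072 ± 99.8 CPM. Later barcodes held both lists at a like level, 21841 ± 1485 and 6048 ± 552 CPM. Gabarapl1, an autophagy protein, was the largest single source of the residual body sum, at 2588 ± 97.7 CPM in members and 1196 CPM in earlier barcodes. Acrosome and sperm-egg fusion genes were at 12446 ± 249 CPM in earlier barcodes and 5963 ± 130 CPM in members. Transcription regulators of spermiogenesis stood at 3117 and 1621 CPM, CatSper and other ion channel genes at 2320 and 1044 CPM, and nuclear genes of oxidative phosphorylation at 14296 and 8755 CPM. Crem, a transcription factor that drives genes of round spermatids, was at 342 CPM in earlier barcodes and 98.6 CPM in members.

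**Figure D3:**
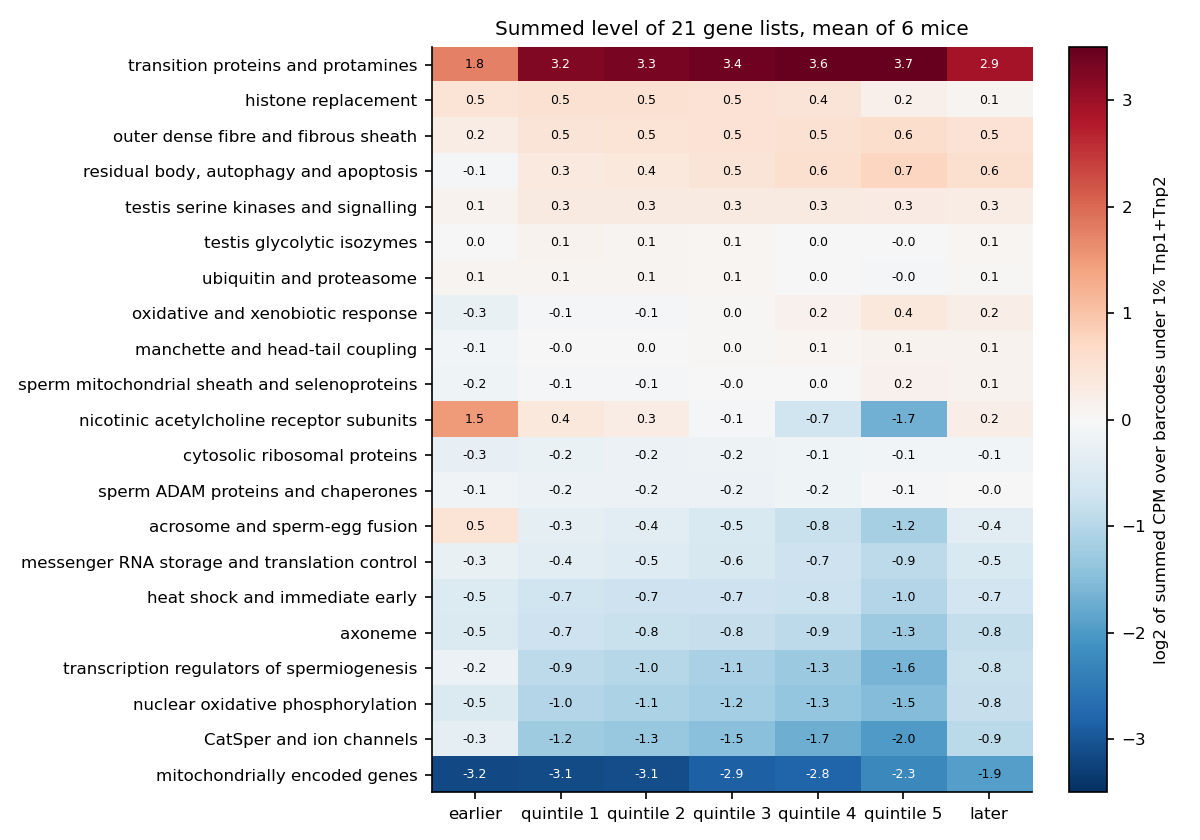
Summed CPM of 21 gene lists (rows) in earlier barcodes, the 5 quintiles of members and later barcodes (columns), as log2 over barcodes under 1% transition protein share, mean of 6 mice. Transition proteins and protamines are highest throughout, mitochondrially encoded genes lowest in earlier barcodes and members, and acrosome, CatSper and transcription regulator lists are lowest in the last quintile.

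Members were then ordered among themselves by the same ratio and cut into 5 pooled groups of 2050 cells, called quintiles. The ratio ran from a median of 0.40 in the first quintile to 1.05 in the last. Members of the last quintile held fewer UMIs and genes, with a median of 7043 UMIs and 1851.5 genes against 9226.5 UMIs and 2412.5 genes in the first. The protamine and transition protein levels follow from the ordering in part. The median number of Tnp1 UMIs per Tnp2 UMI, over cells pooled from all mice, went from 0.636 to 1.07. Tnp1 went from 25860 to 33284 CPM and Tnp2 from 40943 to 33042 CPM. Both are in the ratio's denominator, and how far their balance follows from the ordering was not tested. Mice filled the quintiles unequally, since 6.13% of the members of control 3 and 37.5% of those of nicotine 2 lay in the first.

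Of 1398 genes with at least 100 CPM over the quintiles, 567 were higher in the last quintile than in the first in all 6 mice and 639 were lower in all 6. The downward differences were the larger ones. Cntn1, a cell adhesion gene, went from 191 ± 21.3 CPM to 19.0 ± 6.81 CPM, a log2 difference of -3.27 (SD, n = 6 mice). Ccdc185, Fam71b, Cst13, Dusp13, Odf3, Hemgn and Iqcf6 had log2 differences between -3.05 and -2.86. Cst13, a cystatin family gene, was the most abundant of these, at 1087 ± 94.5 CPM in the first quintile and 136 ± 50.6 CPM in the last.

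Differences upward were small. Spem1, needed in mice for shedding the cytoplasm from the sperm head, went from 276 ± 29.0 to 512 ± 61.2 CPM, a log2 difference of 0.89. Fscb, a fibrous sheath protein gene, Spz1 and Plekhh2 had differences between 0.80 and 0.82. The other 4 of the 8 largest were Gm42418, at 1.17, and the mitochondrial genes mt-Co1, mt-Atp6 and mt-Co2, at 0.86 to 0.94. Gm42418 overlaps a ribosomal RNA repeat, so its reads cannot be assigned to a gene with certainty.

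**Figure D4:**
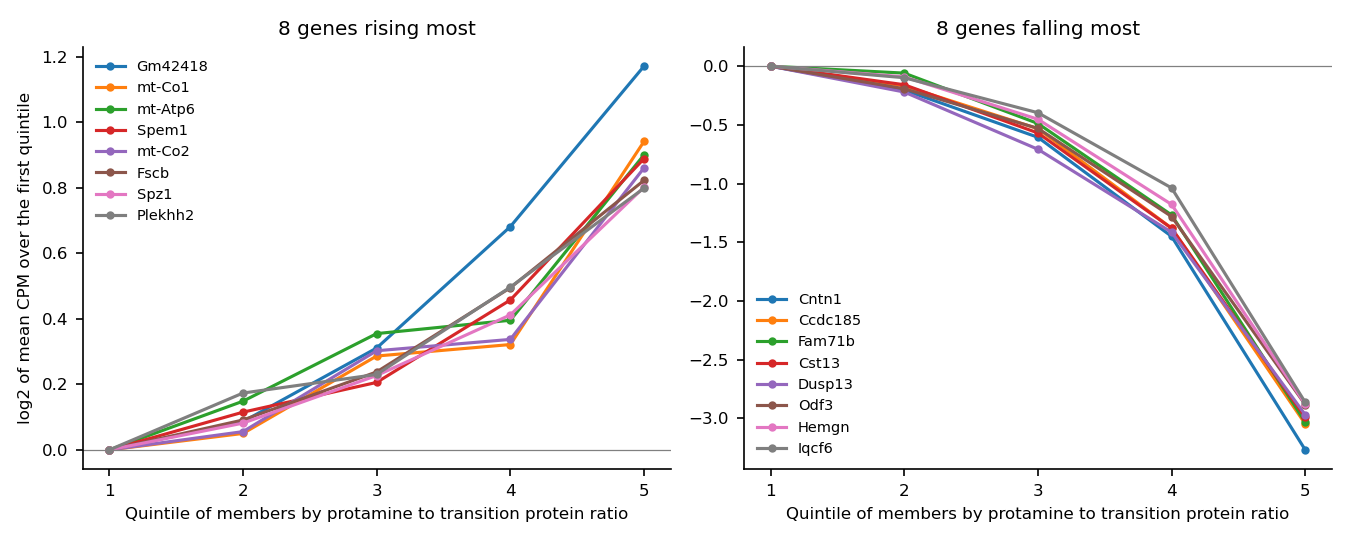
Mean level of the 8 genes with the largest upward (left) and downward (right) difference over quintiles of members ordered by protamine to transition protein ratio (x axis), as log2 of mean CPM over the first quintile (y axis, separate scales). Downward differences reach -2.86 to -3.27 and upward ones 0.80 to 1.17, and most of the downward difference lies between the third and the last quintile.

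Genes of the tail and of energy supply also went both ways. Odf2 went from 3657 to 5521 CPM and Akap4, the main fibrous sheath protein, from 1055 to 1634 CPM, each higher in all 6 mice. Smcp and Gpx4, a selenoprotein of the mitochondrial sheath, were higher as well, from 4223 to 6681 CPM and from 2443 to 3616 CPM. Spata19, a mitochondrial protein gene of spermatids, went from 1756 to 637 CPM instead. Of the glycolytic isozymes, Gapdhs went from 2104 to 3320 CPM and Ldhc from 5233 to 2160 CPM, and each had 1 direction in all 6 mice.

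Of 24 genes of messenger RNA storage and translation control with at least 20 CPM, 12 were lower in the last quintile in all 6 mice and 3 were higher in all 6. Ybx1 and Ybx3, Y-box proteins, went from 1957 to 458 CPM and from 1827 to 425 CPM between the first and last quintile. Their germ cell relative Ybx2 went from 1024 ± 78.7 to 1373 ± 42.0 CPM, higher in all 6 mice. The 43 acrosome genes held 31 with at least 20 CPM, of which 26 were lower in the last quintile in all 6 mice and none was higher in all 6. Spaca7 went from 485 to 86.3 CPM and Ccin, a protein of the sperm head cytoskeleton, from 284 to 39.2 CPM. The 16 nicotinic acetylcholine receptor subunit genes summed to 757 CPM in earlier barcodes, 245 CPM in members and 83.6 CPM in the last quintile. Nearly all of this was Chrne, a muscle receptor subunit, at 228, 164 and 255 CPM in members of the control mice and 215, 170 and 260 CPM in the nicotine mice.

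The study's comparison asks whether nicotine in the drinking water changes the testis. In the members, no gene passed the test. UMI counts of members were summed per mouse and fitted with edgeR's quasi-likelihood test over 14552 genes, and 0 genes (0%) had a Benjamini-Hochberg adjusted p of at most 0.05. At an unadjusted p under 0.05 there were 418 genes, 220 higher with nicotine (1.51% of those tested) and 198 lower (1.36%), and in 1187 genes (8.16%) the groups of mice did not overlap. DESeq2 called 2 genes, Ccl28 and Aard, both with an adjusted p of 0.0499. Without control 2, edgeR called 13 genes, 1 higher and 12 lower, and without both libraries numbered 2 it called 10. With no filter on low counts 23 genes were called, 22 of them lower.

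The share of the cells and their median UMIs were compared over mice by a test that cannot give a p under 0.1 here. Members made up 35.7%, 23.4% and 28.0% of barcodes within the limits in control mice and 28.3%, 26.2% and 36.8% in nicotine mice (two-sided exact permutation p = 0.7, n = 3, as for the next values, with 0.1 the smallest this design allows). The difference of 1.39 points changed sign to -1.41 without control 2 and to -1.80 without nicotine 3. Median UMIs per member were 9533, 8274 and 9264.5 against 8031.5, 8585 and 8092 (exact permutation p = 0.2). With equal numbers of members per quintile and mouse the groups did not overlap, at 9276.5, 8338 and 9097.5 against 7535.5, 8188.5 and 8122.5 (exact permutation p = 0.1), nor did they without both libraries numbered 2. The median ratio of protamine to transition protein, whose denominator the rule used and which is given with no test, was 0.591, 0.605 and 0.691 against 0.547, 0.510 and 0.615, and the groups overlapped. With both libraries numbered 2 left out, 2 mice were left per group. The differences (nicotine minus control) were then 0.716 points in the share of members among barcodes, -1337 in median UMIs and -0.060 in the median ratio.

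After thinning each member to 2500 UMIs, the groups did not overlap in the number of genes detected. Control mice had medians of 1064, 1073.5 and 1079.5 genes per member and nicotine mice 1093.5, 1091 and 1093 (exact permutation p = 0.1, the smallest possible). Without thinning the means were 2232 ± 106 and 2184 ± 31.7 genes (SD, n = 3). The thinned difference was 20.2 genes. With equal numbers of members per quintile and mouse, which also lowered the number of members to 884 per mouse, it was -9.5 genes, the groups overlapped and the exact permutation p was 0.6.

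No marker gene passed the test between the groups. On the scale of the fit, log2 differences (nicotine minus control) were -0.08 ± 0.16 for Prm1, -0.17 ± 0.14 for Prm2 and 0.02 ± 0.14 for Prm3 (standard error), and -0.07 for Cby3 and 0.02 for Tex37, with edgeR adjusted p of 1.0 each. All 5 genes had overlapping groups. The signs of Prm1, Prm3, Cby3 and Tex37 turned under other settings.

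Since no gene was called, the 10 smallest p-values were named, over genes whose mean level was 10 CPM or more. The smallest belonged to Ccl28, a chemokine gene (chromosome 13, 119623819 to 119654359, plus strand). It was at 7.62, 8.16 and 6.98 CPM in control mice and 11.5, 12.6 and 15.2 CPM in nicotine mice, on the normalized scale of the fit, a log2 difference of 0.80 ± 0.13 (standard error) with an edgeR adjusted p of 0.244. Every nicotine mouse lay above every control mouse. The groups did not overlap in the other barcodes either. Those under 1% transition protein share had 10.8, 10.4 and 10.4 CPM in control mice and 16.8, 15.0 and 18.0 CPM in nicotine mice. Earlier barcodes had 7.52 to 9.15 and 12.8 to 16.7 CPM, and later barcodes had 8.03 to 9.30 and 13.7 to 16.5 CPM. Whether the transcript belongs to the members or to free RNA was not tested.

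The other 9 fell into 2 directions, and none passed the test. Higher with nicotine were Pabpc6, a poly(A)-binding protein gene of germ cells, at 30.3 to 33.9 CPM against 39.5 to 41.5 CPM (log2 0.34), Cog6, a Golgi protein gene (0.35), and Adam1b, a sperm membrane protease gene (0.39). Lower were Chchd10, a mitochondrial protein gene (-0.71), Aard (-0.89), Cst9 (-0.68), Tmsb4x, an actin-binding peptide gene (-0.46), Cycs, cytochrome c (-0.46), and Lgals1, galectin 1 (-0.35). In each of the 10 genes the groups did not overlap in members. For Pabpc6 the groups overlapped in the other barcodes, given as unscaled CPM. Earlier ones had 30.9 to 36.3 CPM in control mice and 30.4 to 32.1 CPM in nicotine mice. Those under 1% transition protein share had 152 to 207 and 152 to 154 CPM, and later ones 52.4 to 88.6 and 49.1 to 87.0 CPM.

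Of the lower genes, Aard and Cst9 are on the list of 12 Sertoli cell markers, the nurse cells that surround spermatids. Aard was at 15.3, 12.6 and 16.5 CPM in control mice and 9.56, 9.07 and 5.83 CPM in nicotine mice, with an adjusted p of 0.296. All 8 tested markers of the list were lower, 6 of them at an unadjusted p under 0.05 and 5 without overlap between groups (over all genes tested, 1.36% were lower at that p and 8.16% did not overlap), and their median log2 difference was -0.84, against -0.004 over all genes tested. The 12 markers summed to 52.4 to 63.3 CPM in members of control mice and 31.5 to 40.3 CPM in those of nicotine mice, and in barcodes under 1% transition protein share to 63.1 to 73.7 and 42.6 to 53.3 CPM. Earlier barcodes had sums of 22.1 to 39.5 and 14.7 to 18.8 CPM. In later barcodes the groups overlapped, at 60.1 to 134 and 33.9 to 93.7 CPM. The sums are a description, since the list holds genes named here for their small p. Amh was at 0 in members and Sox9, Wt1 and Cldn11 were at 0.15 to 0.21 CPM. Cst9 at 16.6 CPM and Aard at 11.4 CPM held most of the sum, and Defb36 was at 6.86 CPM. These 3 were lower in the other barcodes within the limits, at 10.8, 8.40 and 2.79 CPM. Every other Sertoli marker on the list was higher in those barcodes than in members. The part of free Sertoli cell RNA in these differences was not tested.

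**Figure D5:**
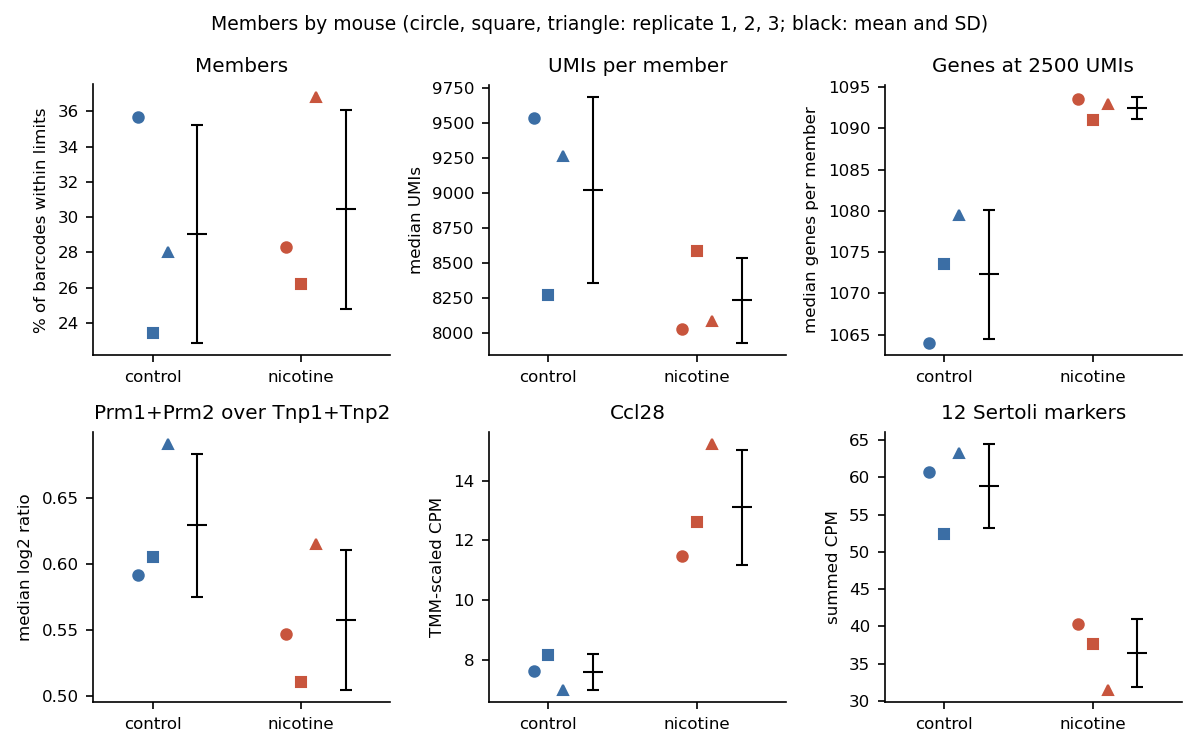
The 6 panels give values of the members by mouse, with controls in blue and nicotine in red and the mean and SD in black: members as a percent of barcodes within the limits, median UMIs, median genes at 2500 UMIs, median protamine to transition protein ratio, Ccl28 and the summed Sertoli markers (y axes start above 0). Groups overlap in the first 2 and in the ratio, and not in genes at 2500 UMIs, Ccl28 and the Sertoli sum.

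In none of the 21 gene lists was a gene called. Of 57 axoneme genes tested, 38 were higher with nicotine, 3 of them at an unadjusted p under 0.05 (Cfap52, Spag16 and Ccdc39), where 7112 of all 14552 genes tested were higher and 1.51% higher at that p, and the median log2 difference was 0.05. The 79 nuclear oxidative phosphorylation genes had a median of 0.04 and 60 higher, none at an unadjusted p under 0.05. All 13 mitochondrially encoded genes were lower, with a median of -0.39, none at an unadjusted p under 0.05 and overlapping groups in each. Their summed levels were 548, 706 and 1187 CPM in control mice and 857, 589 and 548 CPM in nicotine mice, so that control 3 was the highest and the other mice overlapped. The median mitochondrial percent per member was 0.0256 in control and 0.0263 in nicotine mice, as means of 3 mice. Of 25 genes of oxidative and xenobiotic response, 3 were lower at an unadjusted p under 0.05, against 1.36% of all genes tested, and none higher. The first of these was Txn1, thioredoxin, at 2.42, 2.69 and 3.09 CPM against 1.38, 1.44 and 1.46 CPM with an edgeR adjusted p of 0.508. Of the 32 genes of histone replacement tested, 16 were higher and 16 lower, none at an unadjusted p under 0.05.

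The effect of nicotine was also compared between members and their neighbours, in a fit of the interaction with the mouse as a term. For earlier barcodes, 0 of 14693 genes (0%) had an adjusted p of at most 0.05 and 560 an unadjusted p under 0.05. For later barcodes, 0 of 14032 genes (0%) were called and 462 had an unadjusted p under 0.05. Without control 1 the later comparison called Gsn, and without control 3 it called Akr1cl, C1qa, Insl3 and Lcn2, of which C1qa and Insl3 mark macrophages and Leydig cells.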

How the data were processed

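The authors deposited unnormalized UMI counts, 1 whole number for each gene and barcode, from Cell Ranger 7.2.0 per the file headers, on GRCm38 (mm10) per the submitters' processing notes. The barcode filter was not given in the sources used here. Members, gene lists, markers and the rule for named genes were chosen with earlier results of these data known. Counts were summed per mouse over members and tested with edgeR 4.0.16 (filterByExpr defaults, TMM, robust quasi-likelihood, Benjamini-Hochberg) in R 4.3.3; DESeq2 1.42.0 was an alternative. Single values were compared by exact permutation over mice. CPM outside the fit is unscaled; in the fit it is TMM-scaled. Described folds add 1 CPM. Scrublet scores (scanpy 1.11.5) ranked doublets, 0.8% per 1000 barcodes. Named genes were the markers, the 15 most abundant, the 10 of highest fold, 8 in each direction over quintiles and, with none called for nicotine, the 10 smallest p. Of 32285 features, 32158 were found by ID in GENCODE vM21. Tests were also run on simulated counts, and the outcome is not given here. Whether those counts held the differences between libraries seen in the members was not tested. Nothing about error rate or power in these mice is drawn from them. Members of a library held 10908261 to 25215659 UMIs, and the number of mice and this depth limit the precision. P-values set a difference against the spread between mice. With 1 library per mouse, that spread cannot be told apart from the spread between libraries.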

Additional observations from a re-analysis of the deposited data

How the results depend on the processing

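The count of genes changed in members was 0 under the other limits (5000 UMIs, 3% and 6% transition protein), without Scrublet doublets, with RLE size factors, with equal members per quintile or per mouse, and without the 4 transition protein and protamine genes. It was 2 with DESeq2, 23 with no low-count filter, 10 without both libraries numbered 2 (an alternative chosen after seeing the data) and 0 to 13 leaving out 1 mouse, with 13 without control 2. With a replicate block, which pairs mice by number, it was 8. Correlations of same-numbered deviations were 0.016, 0.332 and 0.110, and control 1 and control 3 correlated better with nicotine 3 and nicotine 1 than with their own number. Control 2 and nicotine 2 correlated best with each other, and the labels do not say what a number stands for. Over mice left out, the difference in share ran from -1.80 to 4.71 points, in median UMIs from -1163 to -533, in genes at 2500 UMIs from 16 to 23.8 and in the ratio from -0.100 to -0.041. Genes at 2500 UMIs went to -9.5 with equal members per quintile, also chosen after seeing the data. The interaction count ran from 0 to 0 for earlier and from 0 to 4 for later barcodes over mice left out.

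Log2 differences that changed sign were small. Those of Tnp1, which the rule used, are a description. With equal members per quintile Tnp1 was 0.062 and Prm1 0.057, and 0.052 and 0.047 with DESeq2 on the same members. At the 3% limit Prm3 was -0.017 and Tex37 -0.022, with equal members per mouse Tex37 was -0.00042, and without both libraries numbered 2 Prm3 was -0.064. Leaving out 1 mouse, Tnp1 ran from -0.151 to 0.050, Prm1 from -0.197 to 0.015, Prm3 from -0.114 to 0.149, Cby3 from -0.179 to 0.065 and Tex37 from -0.132 to 0.167. Ccl28 ran from 0.67 to 0.89 over 20 settings and was called in 5, and Aard from -1.07 to -0.46 and was called in 5. The cause of these changes was not tested.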

Other observations

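Related genes appeared more than once among the 92 genes at least 4-fold higher in members than in the other barcodes; they were chosen after their values were seen. Short histone H2A variants of the testis stood among them, H2al2a at 1781 CPM in members and 411 CPM in the others, H2al3 at 506 and 106 CPM, H2al1n at 206 and 47.1 CPM and H2al1m at 152 and 28.9 CPM, beside the linker histone gene H1fnt at 1786 and 437 CPM. H2al1 copies are nearly identical, and how the counting divided reads between them was not tested. Kallikrein genes, Klk1b8, Klk1b26 and Klk1b9, were at 594, 166 and 174 CPM in members and 83.1, 27.0 and 30.1 CPM in the others, and are also close copies. Serine protease genes, Prss51, Prss52 and Prss58, were at 223, 387 and 294 CPM against 24.9, 75.1 and 37.1 CPM. Cdc34 and Ube2g2, ubiquitin-conjugating enzyme genes, were at 1428 and 174 CPM against 262 and 33.7 CPM, while the list of 47 ubiquitin and proteasome genes summed to 14289 CPM in members and 13781 CPM in barcodes under 1% transition protein share.

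Of the 92 genes, 74 had a promoter in the RefSeq table, and 15 of these (20.3%) held TGANGTCA or TGACNTCA, against 10.0% of all 27025 genes there. The 15 include Tnp1, which the rule used, and Prm1, whose matches are given above. The 27025 genes were not limited to those with at least 100 CPM in members, as the 92 were, so the 2 percentages are not for like sets. This is a description with no test, and no enrichment is drawn from it.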
